A study of Mus musculus with 3 samples.

Results

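*Pgbd5*, *Gk5* and *Man1c1* were 3 of the 21951 protein-coding genes of the annotation, and were chosen by their promoters: each had a strong ATAC-seq peak at an annotated start in both *Cdk6* K43M lists and in neither wildtype list. With 100 kb on both sides of each gene body, their loci held 49 of the 50965 open regions obtained by merging overlapping peaks of all lists. The choice used the promoter peaks themselves, so their values are given as a description, with no test.

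ATAC-seq marks open chromatin through a transposase that inserts sequencing adapters into accessible DNA. The cells were pre/pro-B-cell lines grown from mouse bone marrow after retroviral transfer of the BCR-ABL(p185) oncogene, so both genotypes carried the oncogene. The donors were C57BL/6 mice with either the wildtype *Cdk6* gene (Cdk6+/+) or the kinase-inactive K43M allele (Cdk6 KM/KM) on both copies, and each genotype was represented by 2 lines, with 1 library and 1 peak list per line. The labels name K43M_1, K43M_2 and WT_2, where the digit is the replicate. The remaining list has no labelled sample and is called unnumbered WT here, because the series' design text puts it in the wildtype group. That text states that the first wildtype line was reanalysed in this series, and any effect of this on its peaks was not tested. Differences between genotypes rest on 2 lines each and cannot be told apart from differences between individual lines. An absent peak in these bulk lists can mean fewer cells with an open promoter or less opening per cell, which cannot be told apart either.

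A promoter is the DNA around the start of a gene where the transcription machinery assembles, and an active promoter is usually depleted of nucleosomes and therefore open to the transposase. Many promoters of broadly used genes lie in CpG islands, stretches rich in G and C where the CpG dinucleotide has been retained. *Pgbd5* encodes a domesticated transposase of the piggyBac family and is known for its expression in brain. *Gk5* encodes a member of the glycerol kinase family, whose enzymes phosphorylate glycerol, and *Man1c1* encodes a Golgi mannosidase that trims mannose from N-linked glycans of secretory proteins.

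The DNA just before the start of each gene is shown because it lies under the peak that chose the gene. It was read from the RefSeq GRCm38.p6 genome in the direction of transcription and ends 1 base before the annotated start. The *Pgbd5* window is chr8:124434339-124434638 on the minus strand, within an intron of a longer *Pgbd5* transcript. The *Gk5* window is chr9:96119062-96119361 on the plus strand, and the *Man1c1* window is chr4:134704291-134704590 on the minus strand. The windows overlapped no annotated exon. Capitals mark matches to the searched letters GGGCGG (SP1), CCAAT (NFY), TGACGTCA (CREB) and TGGGAA (IKZF1) on either strand.
Pgbd5: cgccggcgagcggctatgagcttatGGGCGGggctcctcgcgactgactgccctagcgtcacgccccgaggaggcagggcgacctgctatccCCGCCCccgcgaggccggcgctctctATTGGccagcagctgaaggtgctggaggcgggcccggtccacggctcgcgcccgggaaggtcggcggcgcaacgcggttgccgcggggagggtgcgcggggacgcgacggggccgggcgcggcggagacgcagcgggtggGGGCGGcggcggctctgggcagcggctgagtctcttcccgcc
Gk5: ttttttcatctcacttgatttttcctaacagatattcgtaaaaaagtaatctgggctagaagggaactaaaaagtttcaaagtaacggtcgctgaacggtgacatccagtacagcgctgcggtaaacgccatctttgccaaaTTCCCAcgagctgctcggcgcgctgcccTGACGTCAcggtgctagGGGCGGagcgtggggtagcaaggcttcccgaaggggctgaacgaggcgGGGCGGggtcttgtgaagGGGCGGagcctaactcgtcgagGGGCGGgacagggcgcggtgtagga
Man1c1: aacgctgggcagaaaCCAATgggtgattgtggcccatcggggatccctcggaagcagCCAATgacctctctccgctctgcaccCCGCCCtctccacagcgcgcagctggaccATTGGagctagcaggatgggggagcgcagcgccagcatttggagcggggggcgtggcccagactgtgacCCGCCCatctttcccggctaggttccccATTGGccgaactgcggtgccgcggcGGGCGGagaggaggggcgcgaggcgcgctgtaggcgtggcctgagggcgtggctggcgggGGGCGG

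The 3 windows were rich in G and C, with 77% in *Pgbd5*, 56% in *Gk5* and 69.7% in *Man1c1*. The median over the same window at 21935 protein-coding starts was 53%. They held 45, 25 and 27 CpG dinucleotides, against a median of 9. SP1, a factor that binds G-rich boxes at many promoters, was the only searched motif found in every window, with 3 matches in *Pgbd5*, 4 in *Gk5* and 4 in *Man1c1*. Its letters occur in 40.4% of the 21935 windows, so a match by itself is common. NFY, which binds the CCAAT box, had 1 match in *Pgbd5* and 4 in *Man1c1*, and its letters are in 39.8% of the windows. The CREB element TGACGTCA, found in 2.03% of the windows, stood between 130 and 123 bases before the *Gk5* start. *Gk5* also had 1 match to TGGGAA (25.8% of the windows). None of the 18 matches overlapped a match to another motif. No match was found in the printed windows for NRF-1 (GCGCANGCG, 6.96% of all windows), ETS (CCGGAAGT, 3.37%), AP-1 (TGANTCA, 7.16%), STAT (TTCNNNGAA, 8.67%), the E-box CACGTG (7.24%), EBF1 (CCCNNGGGA, 7.57%), PU.1 (GAGGAAGT, 2.68%) or RUNX (TGTGGT, 15.8%). These letters are thus missing from the windows shown, and nothing follows from that about the factors.

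Over the whole series, the lists held between 33038 and 39038 peaks, with the highest number in K43M_1. The lists give no read totals. Summit pileups, the number of extended reads over the highest point of a peak, were recovered from the deposited values and had medians of 22 to 26 per list. Where the local background was at the genome-wide level, the lowest pileup listed as a peak was 7 in unnumbered WT and 6 in the other lists. Of the pre/pro-B-cell markers, *Cd79a*, *Pax5*, *Ebf1*, *Vpreb1* and *Igll1* had a promoter peak in all 4 lists, *Cd79b* and *Rag1* lacked one in K43M_2 alone, and *Dntt* had none. Of 4 T-cell markers, *Lck* had a promoter peak in all 4 lists and *Cd3d* in WT_2 alone. Of 5 myeloid markers, only *Lyz2* had one, in both wildtype lists (fold enrichment, the ratio of a peak to its background, of 7.5 and 7.09). The erythroid markers *Hba-a1* and *Klf1* had none. *Alb*, *Myh6* and *Ins2*, genes of other tissues, had none. Of 3 neuronal markers, *Syn1* had a promoter peak in both K43M lists only (fold enrichment 11.1 and 12.3), *Rbfox3* in unnumbered WT and K43M_1, and *Snap25* in none. The part of other cell types in the member promoters was not tested.

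*Pgbd5* had the strongest of the 3 promoter peaks. The gene lies on the minus strand (chr8:124369049-124439658), and the merged promoter region covered 788 bp at chr8:124434130-124434917. The fold enrichment is the authors' ratio of the pileup at the summit to the background expected there, with a small constant added to both. It was 16.5 in K43M_1 and 14.9 in K43M_2, and no peak was listed in unnumbered WT or WT_2. The K43M libraries thus gave nearly the same height, with summits 29 bp apart. The -log10 q of the peak was 74.5 and 58.8, which put it above 98.7% and 97.8% of all peaks of these lists. Summit pileups were 86 and 71 reads, over a local background of 213 and 191 read ends per 10 kb. Among promoter peaks alone, 99.5% of those in K43M_1 and 98.3% of those in K43M_2 had a lower fold enrichment.

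The open *Pgbd5* promoter was 1 of several annotated ones. The gene has 6 annotated transcripts with 6 different starts. The peak spans the start of Pgbd5-204 at 124434338, with summits 265 and 236 bases before it, and reaches into the promoter window of Pgbd5-201, whose start at 124433936 is 270 and 194 bases from the peaks' edges. Promoter windows ran from 2000 bp before to 200 bp after a start. The upstream start of Pgbd5-206 at 124439658 had no peak in its window in any list, although it is the outermost start of the gene. The inner starts of Pgbd5-203, Pgbd5-202 and Pgbd5-205 likewise had none in any list. No alternative *Pgbd5* promoter was therefore listed as open in the wildtype lines.

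At *Gk5*, on the plus strand (chr9:96119362-96184608), the merged promoter region covered 682 bp at chr9:96119064-96119745. Its fold enrichment was 12.03 in K43M_1 and 14.5 in K43M_2, with no peak in unnumbered WT or WT_2. Here the second K43M line had the higher enrichment, the reverse of *Pgbd5*. The -log10 q was nevertheless similar, at 55.1 and 52.1, since the pileup was 76 over a background of 270 read ends per 10 kb in the first line and 63 over 171 in the second. These values exceeded 94.0% and 96.0% of the peaks of their lists. The summits were 43 bp apart, 97 and 54 bases before the start of Gk5-201. The peak lay in the promoter windows of Gk5-201, Gk5-202 and Gk5-203, whose starts fall between 96119362 and 96119432. The 2 remaining starts, of Gk5-204 at 96124220 and Gk5-205 at 96170916, had no peak in their windows in any list.

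*Man1c1*, on the minus strand (chr4:134561690-134704290), had the most even pair of promoter peaks. The fold enrichment was 12.6 in K43M_1 and 12.4 in K43M_2, and neither unnumbered WT nor WT_2 had a peak in the region. The K43M summits lay 2 bp apart, 42 and 40 bases before the start of Man1c1-201, while the median gap over all K43M-only promoter regions was 42 bp. The pileups were 62 and 58 and the -log10 q values 47.3 and 44.0, above 90.6% and 92.7% of the peaks of their lists. The region covered 743 bp at chr4:134703928-134704670. All 3 annotated transcripts start in or near it, at 2 positions, and both promoter windows held the peak. *Man1c1* thus has no annotated start that was open in the wildtype lists.

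The wildtype lists held peaks as strong as those of the members elsewhere. At or above the lowest of the 6 member values, a fold enrichment of 12.03, were 2968 peaks of unnumbered WT, 2880 of WT_2, 3644 of K43M_1 and 2520 of K43M_2. The wildtype counts lay between those of the K43M lists. The local background counts reads around a peak, those of nearby open regions included, so it does not measure depth alone. Its genome-wide level, in read ends per 10 kb, was 65.3 in unnumbered WT, 56.7 in WT_2, 55.1 in K43M_1 and 48.4 in K43M_2. At the 5 regions of the *Pgbd5* locus open in all 4 lists, the median local background was 245 in unnumbered WT, 164 in WT_2, 284 in K43M_1 and 264 in K43M_2. At the 2 regions of the *Gk5* locus the medians were 219, 178, 216.5 and 162 in the same order, and at the 13 of the *Man1c1* locus they were 134, 148, 132 and 115. Near *Pgbd5* both wildtype values were below both K43M values, at *Gk5* they overlapped and at *Man1c1* the wildtype values were higher. The part of these differences in the calls was not tested. No value inside the promoter regions can be had for the wildtype lists, since a list holds peaks only.

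How far the wildtype lists were from having a peak also differed among the members. At *Pgbd5* the nearest wildtype peak was 18.1 kb from the promoter region in WT_2 (fold enrichment 6.25) and 34.9 kb away in unnumbered WT (3.88), both in *Pgbd5* introns. The *Gk5* region was 47.5 kb from the nearest peak in both wildtype lists, an intronic peak with a fold enrichment of 3.90 in unnumbered WT and 4.69 in WT_2. *Man1c1* differed in that WT_2 had a peak only 1.68 kb away, in an intron. That peak had a fold enrichment of 6.58 and a pileup of 14, above 36.1% of its list, and its summit lay 2202 bases after the start, outside the promoter windows. In unnumbered WT the nearest peak was 49.2 kb away, with a fold enrichment of 7.96.

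Of the 16827 merged regions in a promoter window, 954 (5.67%) had a peak in both K43M lists and neither wildtype list. Ranked by the lower of their percentiles in the K43M lists by -log10 q, *Pgbd5* was at 97.8, *Gk5* at 94.0 and *Man1c1* at 90.6. A region at *Cdkn2a*, an inhibitor locus of CDK4 and CDK6, ranked between the last pair at 92.5, with a wildtype peak 781 bases away. Just below *Man1c1* were *Gm32914* at 87.2, the *Gnas* and *Nespas* region at 85.7 and *Fzd9*, a Wnt receptor gene, at 85.5. The median of the 954 was 23.0, so most regions of this kind were weak. Their median distance to the nearest wildtype peak was 10.9 kb, with quartiles of 3.42 and 27.6 kb. The nearest wildtype peak was closer than at *Pgbd5* for 62.6% of them, closer than at *Gk5* for 85.6% and closer than at *Man1c1* for 16.8%.

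**Figure D1:**
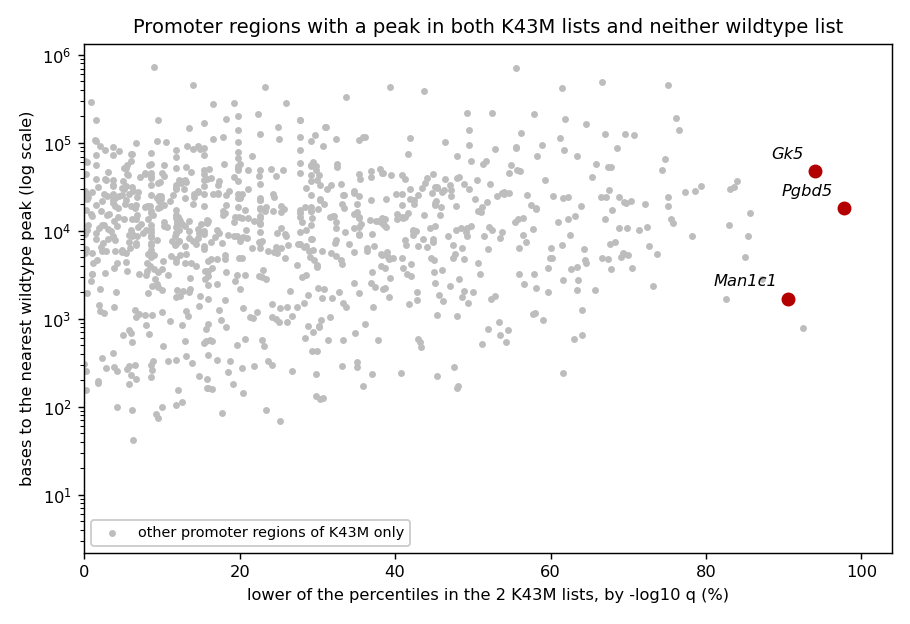
Each point is 1 of the 954 promoter regions with a peak in both K43M lists and neither wildtype list. The x axis gives the lower of the percentiles it reached in the 2 K43M lists, ranked by -log10 q, and the y axis, on a log scale, the bases to the nearest wildtype peak. *Pgbd5*, *Gk5* and *Man1c1* lie at the right edge, at 97.8, 94.0 and 90.6, with *Man1c1* nearest to a wildtype peak.

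Base composition was not itself used in the choice, but peak strength was. The K43M-only promoter regions set beside the members below were mostly weaker peaks, and the comparison was not matched for strength. Within 500 bp of the summit, *Pgbd5* had 69.7% G and C and 111 CpG dinucleotides, a ratio of observed to expected CpG of 0.93. *Gk5* had 58.5%, 80 CpG and a ratio of 0.94, and *Man1c1* had 70.5%, 100 CpG and a ratio of 0.81. All 3 passed the limits of a CpG-rich promoter, more than 50% G and C with a ratio above 0.6. Of all 954 K43M-only promoter regions, 35.6% passed them, with a median ratio of 0.46. The share was 11.0% of the 363 promoter regions with a peak in both wildtype lists only, and 67.0% of the 11065 promoter regions open in all 4 lists, whose median ratio was 0.72. The CpG ratio was higher in *Pgbd5*, *Gk5* and *Man1c1* than in 95.4%, 96.1% and 85.4% of the 954. Repeat-masked sequence made up 1.32% of the *Gk5* region and none of the others. The members thus resembled commonly open promoters in base composition more than the median K43M-only promoter region, which is a description of 3 genes chosen for strong peaks.

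**Figure D2:**
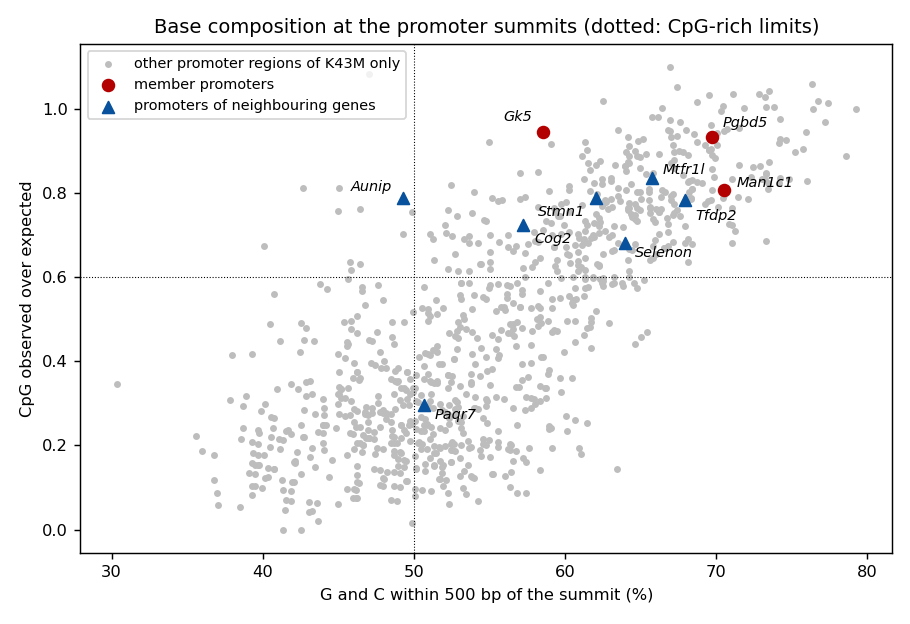
Percent G and C within 500 bp of the summit (x axis) and the ratio of observed to expected CpG (y axis). Grey points are the other K43M-only promoter regions, red circles the members and blue triangles promoters of neighbouring genes. All 3 members lie above both dotted limits of 50% and 0.6, near most of the neighbours, while the region upstream of *Paqr7* lies in the dense grey group at the lower left.

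Apart from the promoters, the 3 loci held 46 regions. Of these, 20 (43.5%) had a peak in all 4 lists, near the 41.2% over all regions of the series. A peak in both K43M lists and neither wildtype list marked 6 of them (13.04%, against 7.64% over all regions), and the reverse marked 0 (against 4.51%). The 6 were modest peaks, with fold enrichments of 3.50 to 6.80. The pattern differed among the loci, and the counts are too small to set against the background one locus at a time.

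The surroundings of *Pgbd5* held 15 other regions. Of these, 5 were open in all 4 lists, 3 in both K43M lists only and 3 in a single K43M list. Upstream, the only region open in all 4 lists was the promoter of *Cog2*. Inside *Pgbd5* there were 3 intronic regions, all far weaker than the promoter and all found in WT_2 and K43M_1. The one 18.4 kb after the start had a fold enrichment of 6.25 and 5.61 in these lists, and the one 30.2 kb after it had 5.15 and 4.76. The third, 35.3 kb after the start, was also listed in unnumbered WT and had 3.88, 5.91 and 5.79 in unnumbered WT, WT_2 and K43M_1. None was listed in K43M_2. These intronic peaks therefore did not follow the genotypes. The K43M-only regions were 2 in introns of *Galnt2*, which encodes an enzyme that starts O-linked glycosylation, and 1 between the genes, 71.2 kb after the *Pgbd5* start. Their fold enrichments in K43M_1 and K43M_2 were 4.19 and 4.22, 3.50 and 4.69, and 5 and 4.26.

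The *Gk5* locus was sparse, with 8 other regions. Inside the gene a single intronic region 48.0 kb after the start had fold enrichments of 3.90 in unnumbered WT, 4.69 in WT_2 and 6 in K43M_2. It was missing from K43M_1. The 2 regions open in all 4 lists lay at the start of *Tfdp2*, which encodes a partner of E2F transcription factors, and at a *Gm37195* start within *Tfdp2*. The second had a fold enrichment of 10.9 in unnumbered WT, 7.14 in WT_2, 5.16 in K43M_1 and 5 in K43M_2, so the wildtype values were all higher. It was singled out after its values were seen. The K43M-only regions were a peak over an exon of *Xrn1*, an RNA exonuclease gene, with 5.23 and 6.80, and a peak at an inner start of *Tfdp2* with 5.09 and 4.21.

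*Man1c1* lay in the most densely open locus, with 23 other regions, of which 13 were open in all 4 lists. Unlike the other members, it had intronic regions with a peak in every list, at percentiles of 50.0 to 77.2 by -log10 q. The one 85.0 kb after the start had fold enrichments of 8.42 in unnumbered WT, 10.2 in WT_2, 9.07 in K43M_1 and 8.07 in K43M_2. The one 51.9 kb after it had 7.77, 8.74, 8.72 and 9.94 in the same order. The wildtype and K43M values overlapped in both. Both intronic regions of *Man1c1* were thus open in all 4 lines although its promoter was listed in the K43M lines only. Before the promoter, a region 9.84 kb from the start was listed in WT_2 (6.54), K43M_1 (7.61) and K43M_2 (7.66). The only K43M-only region apart from the promoter lay at the start of *Paqr7*, a membrane progestin receptor gene, with fold enrichments of 6.76 and 3.98.

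**Figure D3:**
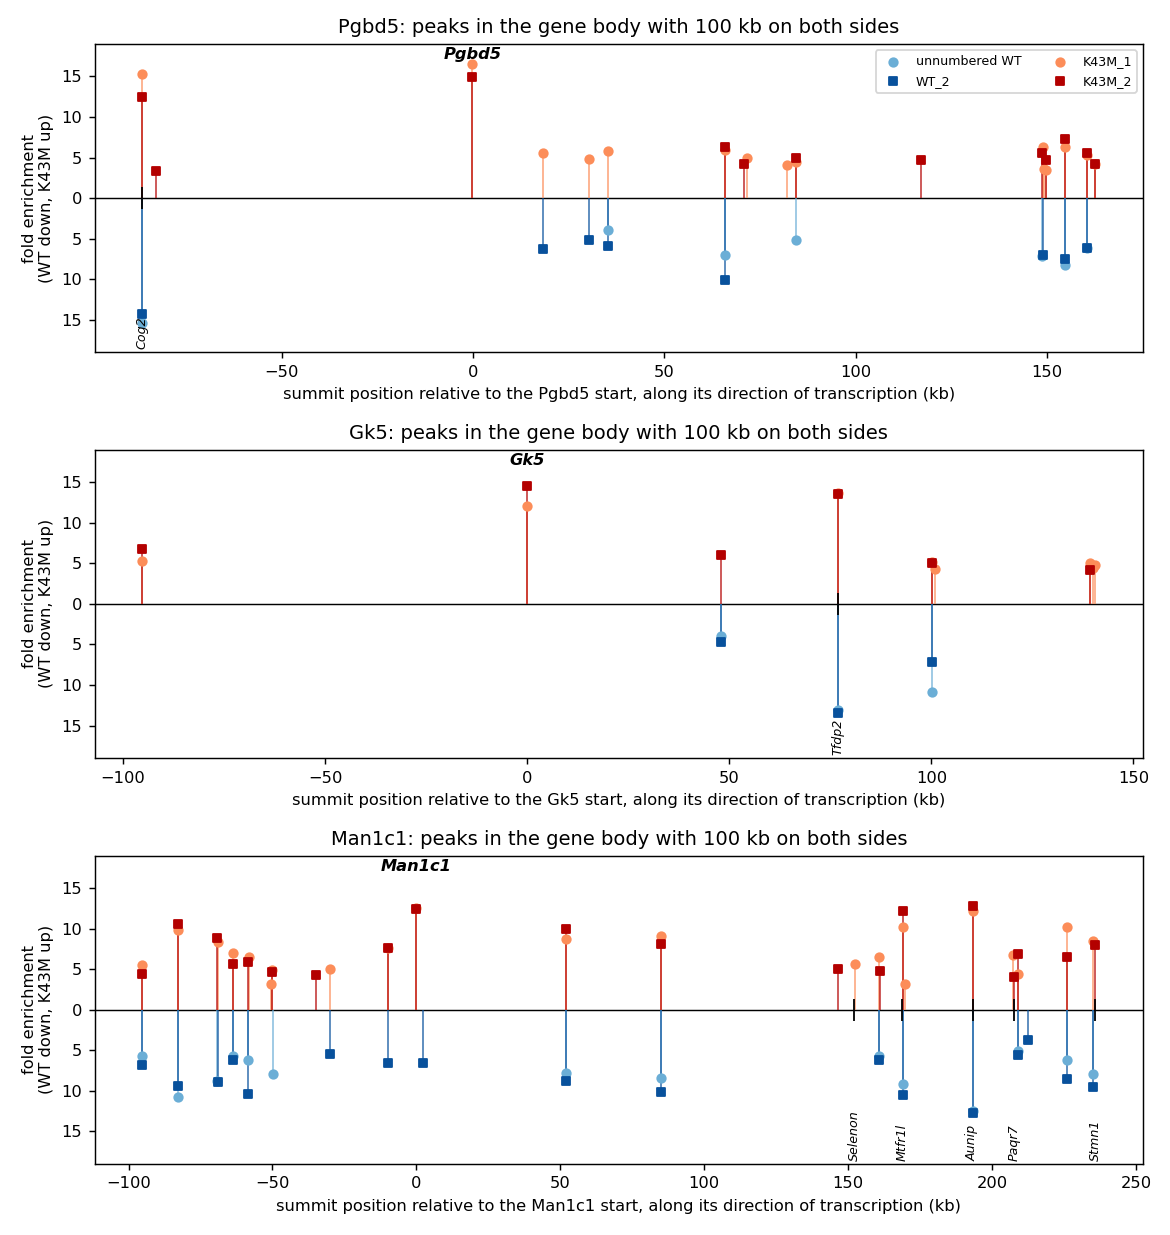
Peaks of each locus, with the position of the summit relative to the member's start on the x axis (kb, in its direction of transcription) and the fold enrichment on the y axis. K43M peaks point up and wildtype peaks down, with 1 symbol per list, and black ticks mark the starts of the named neighbouring genes. At position 0 there are K43M peaks of 12.03 to 16.5 and no wildtype peak, while most other strong peaks are mirrored.

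The number of peaks outside the promoter region was compared between the genotypes in each locus. At *Pgbd5* there were 7 in unnumbered WT, 8 in WT_2, 14 in K43M_1 and 11 in K43M_2, a difference of 5 between the means (exact permutation test over the lists, two-sided p = 0.333). The counts at *Gk5* were 3, 3, 7 and 5 in the same order, a difference of 3 (exact permutation test, two-sided p = 0.333). The counts at *Man1c1* were 14, 17, 20 and 18, a difference of 3.5 (exact permutation test, two-sided p = 0.333). In each locus both K43M lists held more peaks than both wildtype lists, but with 2 lists against 2 the smallest p that this test can give is 0.333, so no difference could pass a threshold of 0.05. K43M_1, the longest list, had the highest count in all 3 loci. With only the 33038 best peaks of each list the differences were 4, 1 and 3. The genotypes no longer separated at *Pgbd5* and *Gk5* with 50 kb on both sides, where the differences were 1.5 and 0, or at *Man1c1* with only peaks of -log10 q of 5 or more, where it was 1 (exact permutation test, two-sided p = 1 for each).

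Enrichment was compared over the regions open in all 4 lists, as the mean log2 fold enrichment of a locus minus the same mean over all such regions of the series. At the 5 regions of the *Pgbd5* locus it was 0.01 in unnumbered WT, 0.07 in WT_2, -0.24 in K43M_1 and -0.16 in K43M_2. The K43M mean was lower by 0.24 (exact permutation test, two-sided p = 0.333). At the 2 regions of the *Gk5* locus the values were 0.54, 0.26, -0.02 and 0.05, and the K43M mean was lower by 0.38 (exact permutation test, two-sided p = 0.333). At the 13 regions of the *Man1c1* locus they were -0.15, 0.05, -0.10 and -0.06, a difference of -0.03 that was within the spread of the wildtype lists (exact permutation test, two-sided p = 1). At *Pgbd5* and *Gk5* both K43M values were below both wildtype values. At *Gk5* the *Tfdp2* promoter differed by only 0.04 before centring, so the lower K43M mean came from the *Gm37195* region. Near *Pgbd5* the median local background of the shared regions, which is the divisor in fold enrichment, was higher in both K43M lists. At the region 148.9 kb after the start and at the *Cog2* promoter the backgrounds overlapped between the genotypes. The part of the background in the difference was not tested. Summit pileups in the region 160.6 kb after the *Pgbd5* start were 31 and 25 in the wildtype lists and 36 and 34 in the K43M lists. Those of its other shared regions overlapped between the genotypes. Ranked by -log10 q within each list in place of fold enrichment, the *Pgbd5* difference was -2.41 percentile points and the genotypes overlapped (exact permutation test, two-sided p = 1). Without K43M_1, which leaves 3 shared regions at *Gk5*, the difference there was -0.05.

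Neighbouring promoters gave a comparison within the same loci. *Cog2*, encoding a subunit of a Golgi tethering complex, starts 86.4 kb before *Pgbd5* and had fold enrichments of 15.4 in unnumbered WT, 14.3 in WT_2, 15.3 in K43M_1 and 12.5 in K43M_2. These values are close to the 16.5 and 14.9 of *Pgbd5* and overlap between the genotypes. *Tfdp2*, 76.9 kb after the *Gk5* start, had 13.04, 13.4, 13.6 and 13.6 in the same order. The *Tfdp2* promoter was thus as enriched as that of *Gk5* and nearly equal in the 4 lists. *Galnt2*, downstream of *Pgbd5*, has only inner starts in the locus, without a peak in any list.

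Neighbours of *Man1c1* were mostly alike in the 4 lists too. *Aunip*, a centrosome and DNA repair gene, had 12.5, 12.8, 12.2 and 12.8 in the same order, close to the 12.6 and 12.4 of *Man1c1*. *Stmn1*, which encodes the microtubule regulator stathmin, had 7.96, 9.49, 8.50 and 8.03. *Mtfr1l*, a mitochondrial gene, had 9.10, 10.5, 10.2 and 12.2. For these 3 genes the wildtype and K43M values overlapped. *Selenon*, a selenoprotein gene, had a promoter peak in K43M_1 alone (5.61). *Paqr7* had a weak peak of 5.03, 5.56, 4.43 and 6.82 upstream of its start in all 4 lists, beside the K43M-only peak at the start itself. Among the neighbours, *Paqr7* and, at an inner start, *Tfdp2* had a weak promoter region in both K43M lists only, beside promoter peaks in all 4.

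**Figure D4:**
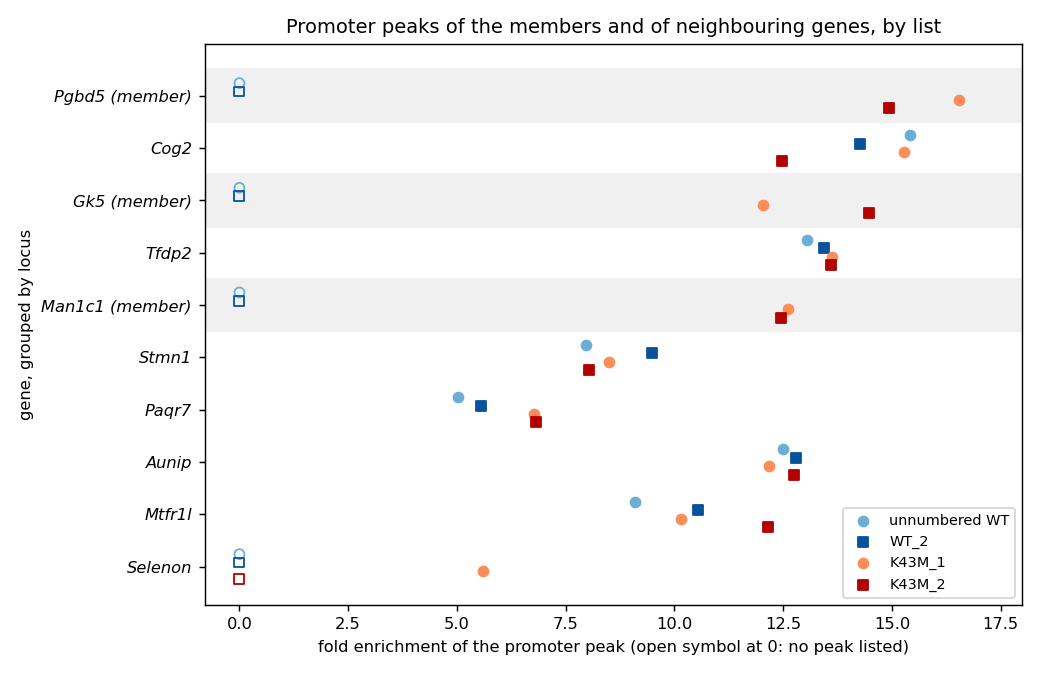
Fold enrichment of the highest promoter peak (x axis) of each member and of neighbouring protein-coding genes (y axis), with 1 symbol per list. Open symbols at 0 mean that the list holds no peak. The members, on grey, have no peak in the wildtype lists, whereas *Cog2*, *Tfdp2* and *Aunip* have peaks of similar height in all 4. For *Paqr7* the highest peak is the upstream one in the wildtype lists and in K43M_2, and the one at the start in K43M_1.

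Genes with related functions were listed to see whether their promoters behaved alike. Over all other protein-coding genes, 1.99% had a promoter peak in both K43M lists and neither wildtype list, and 47.6% had one in all 4 lists. Of 47 annotated related genes, 0 had the K43M-only pattern, 38 (80.9%) had a promoter peak in all 4 lists and 6 had none in any. At 1.99%, about 1 K43M-only gene would be found in a list of this length, so the count of 0 is no finding. Of 11 genes of glycerol metabolism, 6 were open in all 4 lists, among them the glycerol kinase gene *Gk*, with 10.4 in unnumbered WT, 9.62 in WT_2, 10.0 in K43M_1 and 11.4 in K43M_2. *Gk2*, a testis form of glycerol kinase, *Gpd1*, *Aqp7* and *Aqp9* had no promoter peak, and the glycerol channel gene *Aqp3* had one in K43M_1 alone (4.72). All 14 genes of N-glycan trimming, among them the mannosidase genes *Man1a*, *Man1a2* and *Man1b1*, were open in all 4 lists. The *Man1c1* pattern was therefore not shared by the other class I mannosidase genes on the list.

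Of 22 genes derived from transposases, 18 had a promoter peak in all 4 lists. *Pgbd1*, another piggyBac-derived gene, and *Tigd4* had none in any list. *Rag1* and *Rag2* encode the recombinase that assembles antigen receptor genes. *Rag1* had fold enrichments of 6.41 in unnumbered WT, 5.71 in WT_2 and 6.21 in K43M_1. *Rag2* had 4.55 in unnumbered WT, 7.22 in K43M_1 and 5.03 in K43M_2. Neither followed the genotypes.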

How the data were processed

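ATAC-seq peak lists of 4 mouse cell lines were used. As stated in the study's methods, the authors trimmed reads with Trimmomatic, mapped them with BWA to mm10 and called peaks per library with MACS2 (--nomodel --shift -100 --extsize 200), with no pooling stated. The fold enrichment deposited by the authors is a ratio of summit pileup to background within a library, with a small constant added to both. The authors also deposited -log10 p and -log10 q, adjusted within each library. Reads were not analysed here, so read depth is known only through the pileups.

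Peaks were merged across lists (1 bp overlap). Promoter windows used GENCODE mouse release 21 (GRCm38), and sequences came from RefSeq GRCm38.p6. Pileup and background were recovered from fold enrichment and -log10 p under a Poisson model, for 100% of the peaks of each list. On simulated data, 2000 of 2000 pileups and 4000 of 4000 list memberships were recovered. The motif search covered 12 patterns on both strands.

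Groups followed the labels, and the list without a sample followed the series' design text. Members and gene lists were chosen with earlier results of these data known. Named genes were the members, protein-coding genes starting in their loci, related genes lacking a promoter peak in some list and the regions ranked next to the members; some are not reported here. Values per locus were compared by the exact permutation test over the lists (two-sided, 6 ways). Each p-value is the share of these 6 ways that gave a difference of means at least as large in size. The line was the replicate. Alternatives changed the peaks used, locus width, promoter window, overlap, centring, scale and libraries. Calculations used Python 3.11.15, numpy 2.4.6, scipy 1.17.1, pysam 0.24.0, matplotlib 3.10.9 and samtools 1.23.1.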

Additional observations from a re-analysis of the deposited data

How the results depend on the processing

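Of 75 recalculations, 68 kept the direction or stayed within 1.5 times the count, although some of these were much smaller. The 68 include the member promoters, which kept their pattern with a -log10 q of 5 or more and with the same number of peaks per list. They also kept it with peaks within 500 bp and with windows of 500 bp on either side of a start. This is no support for the pattern, since the members were chosen for it. The first settings only remove peaks and cannot add a wildtype peak. The nearest wildtype peak to a member region was 1.68 kb away, beyond the 500 bp settings. With 50 kb instead of 100 kb on both sides, the difference in peaks was 0 at *Gk5* and 1.5 instead of 5 at *Pgbd5*, and the *Man1c1* difference in log2 enrichment of shared regions turned from -0.03 to 0.035. With a -log10 q of 5 or more the latter was 0.0019, and the difference in *Man1c1* peaks was 1 instead of 3.5. On the percentile scale the *Pgbd5* difference in shared regions was -2.41 points, with overlapping genotypes. The number of K43M-only regions outside the promoters was 6, and it was 1 with 50 kb, 12 with 200 kb and 7 to 12 when 1 list was left out, with 10 without K43M_1 and 12 without K43M_2, since 1 list then stood for the genotype. The cause of the other changes was not tested. Leaving out 1 list, the difference in peaks was 3.5 to 6.5 at *Pgbd5*, 2 to 4 at *Gk5* and 2 to 5 at *Man1c1*. The difference in log2 enrichment was -0.29 to -0.18, -0.53 to -0.05 and -0.13 to -0.0028. No paired analysis was possible because the replicate numbers mark lines, and each line had a single genotype. Regions under the listing threshold, a pileup of 6 or 7 at genome-wide background, are not visible in these lists.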
